A study of Mus musculus with 6 samples.

Results

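The 35 genes described here are mouse genes known to be switched on by type I interferon and to take part in defence against viruses. They were taken by symbol from a list of names. All 35 were present among the 23358 entries of the deposited table, and all 35 were among the 16280 genes with counts high enough to be tested. Their RNA was measured by sequencing in immature chondrocytes, the cells that build cartilage, which came from the tibial plateau, the femoral condyles and the femoral head of mice at post-natal day 5. The 6 libraries were wildtype at day 3, 7 and 14 and Ezh2-deficient at day 3, 7 and 14 of micromass culture, a dense spot of cells that lays down cartilage matrix, with 1 library in each group. Both genotypes carried the strain label C57BL/6 - mix. The titles of the Ezh2-deficient libraries read Ezh2_cKO, for a conditional knockout, and the labels give neither the Cre driver nor the number of animals behind a culture. Every culture was kept in DMEM with 2% FBS and, in micromass, with insulin, transferrin and selenium, ascorbic acid at 0.05 mg/mL and β-glycerol phosphate at 10 mM. No interferon and no virus was named among the additions.

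Type I interferons are secreted proteins that cells release when they sense foreign or misplaced nucleic acid. They bind the receptor chains Ifnar1 and Ifnar2, whose kinases Jak1 and Tyk2 phosphorylate transcription factors, Stat2 among them. Stat2 and Irf9 then act in a complex that binds a short promoter sequence, the interferon-stimulated response element, and switches on antiviral genes. Ezh2 is the methyltransferase subunit of Polycomb repressive complex 2, which marks silent genes with methylation of lysine 27 of histone H3.

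Promoter sequences of the genes were taken from RefSeq (build GRCm38.p6), which gave an entry for 24 of the 35. The response element was searched as GAAANNGAAA, on both strands and with overlapping matches allowed, from 250 bases before to 50 bases after each start. It was found in 11 of the 24 (45.8%), namely Ifit1, Ifit3, Isg15, Oas1a, Oas3, Stat2, Ifih1, Ddx58, Eif2ak2, Rsad2 and Bst2. Among 15717 genes of the table with such an entry, 610 (3.88%) held it, and among all 32851 promoters of the set 3.44%. The share was not particular to the members, as 16 of 37 other listed interferon-inducible genes with an entry (43.2%) held it too. A match is a description of letters and not a measured binding site. Promoters of Parp9, Usp18, Rtp4, Dhx58, Ifi27l2a, Zbp1, Oas1b, Parp14, Oas2, Mx2 and Mx1 were not used here. The 250 bases before the start are printed below for 5 genes that held matches and that differ in level and in genotype ratio, and for Ifit2, a neighbour of Ifit1 and Ifit3 in which these letters were not found. Capitals mark the matches, which read TTTCNNTTTC where the motif lies on the other strand.
Isg15 (chr4:156200819-156201068, minus strand, 3 overlapping matches): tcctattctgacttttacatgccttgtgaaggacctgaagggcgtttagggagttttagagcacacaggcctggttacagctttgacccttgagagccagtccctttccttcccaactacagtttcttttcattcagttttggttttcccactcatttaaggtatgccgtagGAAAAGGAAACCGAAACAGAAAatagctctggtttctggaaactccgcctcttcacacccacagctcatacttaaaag
Ifit1 (chr19:34640639-34640888, plus strand, 2 matches): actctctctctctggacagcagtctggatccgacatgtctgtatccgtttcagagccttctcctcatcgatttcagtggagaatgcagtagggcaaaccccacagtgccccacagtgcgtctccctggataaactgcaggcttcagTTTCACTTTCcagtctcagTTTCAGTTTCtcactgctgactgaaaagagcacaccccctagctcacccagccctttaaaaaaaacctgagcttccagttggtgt
Ifit3 (chr19:34583279-34583528, plus strand, 2 matches): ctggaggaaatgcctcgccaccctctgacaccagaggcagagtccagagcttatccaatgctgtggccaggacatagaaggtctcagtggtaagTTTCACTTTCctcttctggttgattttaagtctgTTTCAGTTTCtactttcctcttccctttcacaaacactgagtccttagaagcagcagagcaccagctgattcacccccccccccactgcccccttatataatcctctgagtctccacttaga
Oas1a (chr5:120907526-120907775, minus strand, 2 overlapping matches): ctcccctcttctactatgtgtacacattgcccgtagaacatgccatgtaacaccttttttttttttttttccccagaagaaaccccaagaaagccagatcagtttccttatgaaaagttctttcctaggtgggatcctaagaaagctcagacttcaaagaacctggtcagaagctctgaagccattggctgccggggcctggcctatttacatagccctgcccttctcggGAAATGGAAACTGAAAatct
Bst2 (chr8:71537473-71537722, minus strand, 2 overlapping matches): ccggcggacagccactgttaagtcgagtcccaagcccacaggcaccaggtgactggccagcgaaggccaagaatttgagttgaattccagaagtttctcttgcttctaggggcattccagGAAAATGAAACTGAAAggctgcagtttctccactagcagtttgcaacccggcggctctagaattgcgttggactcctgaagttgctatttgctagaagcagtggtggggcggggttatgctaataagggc
Ifit2 (chr19:34550444-34550693, plus strand, the first of its starts, no match): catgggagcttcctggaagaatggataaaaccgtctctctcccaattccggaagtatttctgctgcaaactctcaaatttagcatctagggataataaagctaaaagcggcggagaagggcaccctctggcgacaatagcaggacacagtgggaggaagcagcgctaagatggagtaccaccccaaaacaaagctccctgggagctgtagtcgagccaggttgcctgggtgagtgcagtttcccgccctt

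The cultures and their labels were checked first. Depth ran from 51985214 to 79323302 counts per library, and all counts were even, so 1 sequenced fragment is taken as 2 counts. Levels are given as CPM, counts per 1000000 counts of the library after TMM scaling, which allows for differences in RNA composition. In CPM, 3 fragments, taken as the floor, were worth 0.0763 to 0.114. Ezh2 itself stood at 24.7, 40.2 and 27.9 CPM in wildtype and at 14.7, 23.0 and 17.6 CPM in Ezh2-deficient libraries at days 3, 7 and 14. Each day its Ezh2-deficient library was the lower (log2 fold change -0.74 ± 0.08 SE, adjusted p = 0.0729 with edgeR), and the labels do not say which part of the gene was deleted. The cartilage collagen Col2a1 lay between 11450 and 79130 CPM, and all 10 chondrocyte markers in the table fell from day 3 to day 14. Of 17 macrophage markers listed, 16 were in the table, and all 16 rose from day 3 to day 7. Their summed level at days 3, 7 and 14 was 191, 1706 and 2497 CPM in wildtype and 149, 1718 and 3343 CPM in Ezh2-deficient libraries. Of 10 lymphocyte and plasmacytoid dendritic cell markers, the highest, Bst1, reached 3.42 CPM, and Cd3g and Ncr1 were at 0 in all libraries. In such bulk RNA a change in the number of cells of a type and a change in RNA per cell cannot be told apart.

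The first comparison asked how the 35 genes changed while the cultures matured. Of the 35, 34 rose between day 3 and day 7 in each genotype, and most were lower again on day 14 in both. Their summed level was 317.5, 1009 and 800.9 CPM at days 3, 7 and 14 in wildtype and 286.6, 1636 and 1065 CPM in Ezh2-deficient libraries. The Ezh2-deficient day 7 library held the highest level of 32 of the 35 genes. The share of all genes tested with their highest level in that library was not counted. Oas2 and Trim25 were highest in the Ezh2-deficient day 14 library and Isg20 in the wildtype day 3 library.

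**Figure D1:**
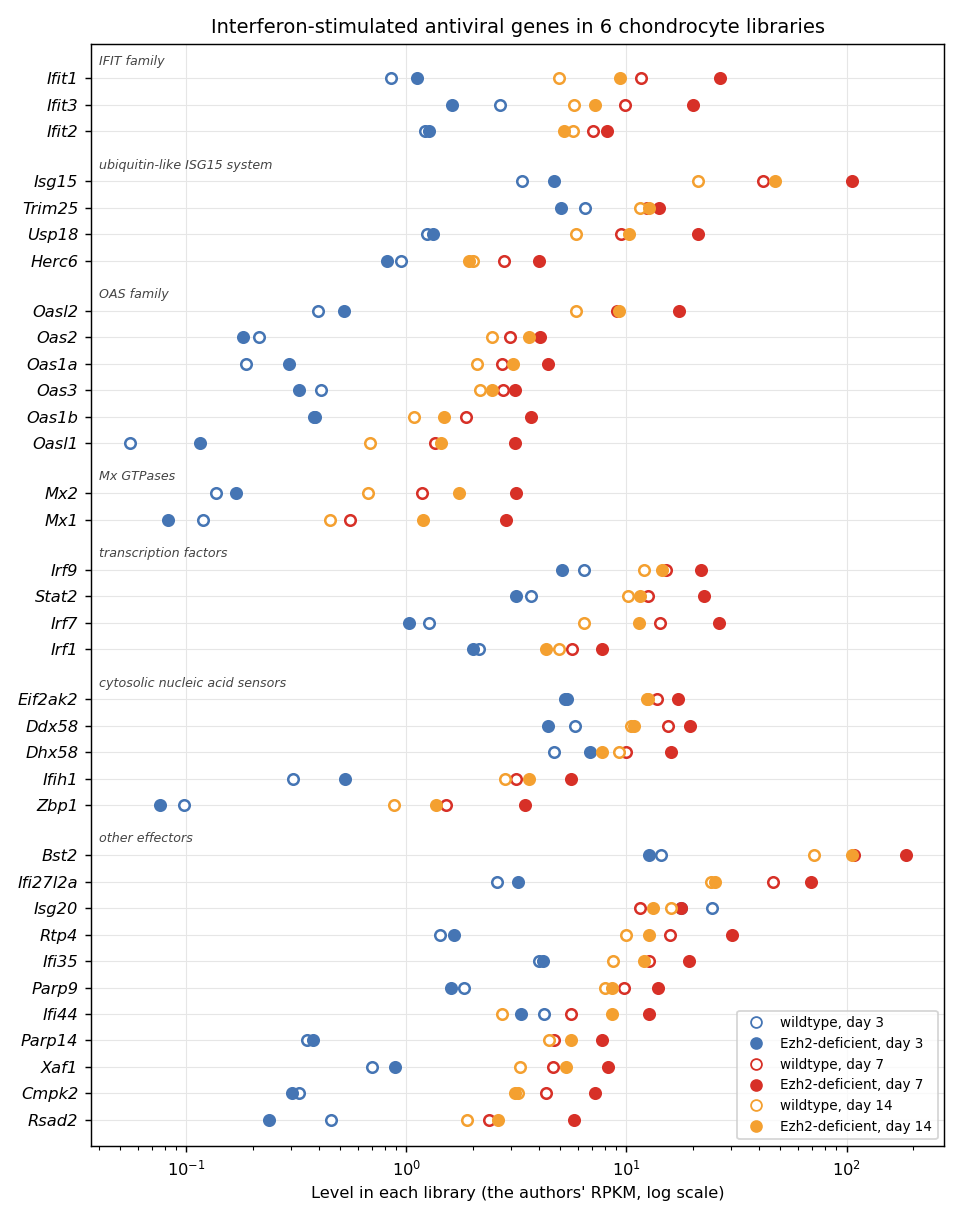
Level of each of the 35 genes (rows, grouped by role) in each of the 6 libraries, as RPKM on a log axis, with open points for wildtype, filled points for Ezh2-deficient and colours for the day. Day 3 points lie to the left for all genes except Isg20 and Ifi44, and the Ezh2-deficient day 7 point is the rightmost for most genes.

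Between day 7 and day 3, 33 of the 35 genes were significantly higher on day 7 (edgeR, adjusted p under 0.05), against 19.5% of all genes tested. The genotypes stood in for replicates of a day in this fit. The median difference was 3.19 on the log2 scale, beside -0.02 over all genes tested. Isg20 (-0.72 ± 0.25 SE, adjusted p = 0.0752) and Ifi44 (0.88 ± 0.47, adjusted p = 0.197) did not pass. Within wildtype the day 7 library was higher for 34 genes, with a median ratio of 5.83. Within Ezh2-deficient cultures it was also higher for 34 genes, with a median ratio of 10.6. All ratios between 2 libraries here were computed with a prior count of 2. With library sizes scaled by total counts alone, the median of all genes for this comparison moved to 0.19, and 33 of the 35 passed there too.

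Between day 14 and day 3, 32 genes were higher on day 14, against 23.2% of all genes tested, with a median of 2.599 beside -0.02 over all genes. Isg20, Ifi44 and Dhx58 (0.55 ± 0.22, adjusted p = 0.0906) did not pass. This comparison shares the day 3 libraries with the one before, so they are not independent of each other. From day 7 to day 14, 33 of the 35 genes were lower in wildtype and 33 in Ezh2-deficient libraries, with median ratios of 0.764 and 0.631. On the log2 scale these medians were -0.39 and -0.66, beside -0.0055 and -0.0162 over all genes tested. The day 14 to day 7 difference passed with edgeR for 2 of the 35 genes, both lower on day 14. These were Ifit1 (-1.23 ± 0.19, adjusted p = 0.0254) and Ifi27l2a (-1.04 ± 0.14, adjusted p = 0.0201). Their number is near the share of all genes tested, of which 5.66% passed in either direction. In the lower direction alone, 372 of the 16280 genes tested passed. Without the day 3 libraries 16 passed, all lower on day 14, against 14.4% of all genes tested. With library sizes scaled by total counts alone, the median of all genes for this comparison moved from -0.01 to -0.16, and 4 passed.

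The macrophage markers moved with the day as well. Like the antiviral genes they were far higher on day 7 than on day 3, by 8.92 times in wildtype and 11.5 times in Ezh2-deficient libraries as a sum. Unlike most of the 35 they went on upward from day 7 to day 14, for 16 of 16 markers in wildtype and 15 of 16 in Ezh2-deficient libraries, all but Cd14. The sum of the antiviral genes over that interval was 0.794 times its day 7 value in wildtype and 0.651 times in Ezh2-deficient libraries. In the fits over both genotypes, 4 of the 16 macrophage markers passed as higher on day 14 than on day 7. The same direction passed for 550 of the 16280 genes tested. All 7 fibroblast markers passed as higher on day 7 than on day 3, against 19.5% of all genes tested. From day 7 to day 14, 4 of the 7 fibroblast markers passed as higher, and 5 had a difference above 0. The part of these cells in the levels of the antiviral genes was not tested.

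**Figure D2:**
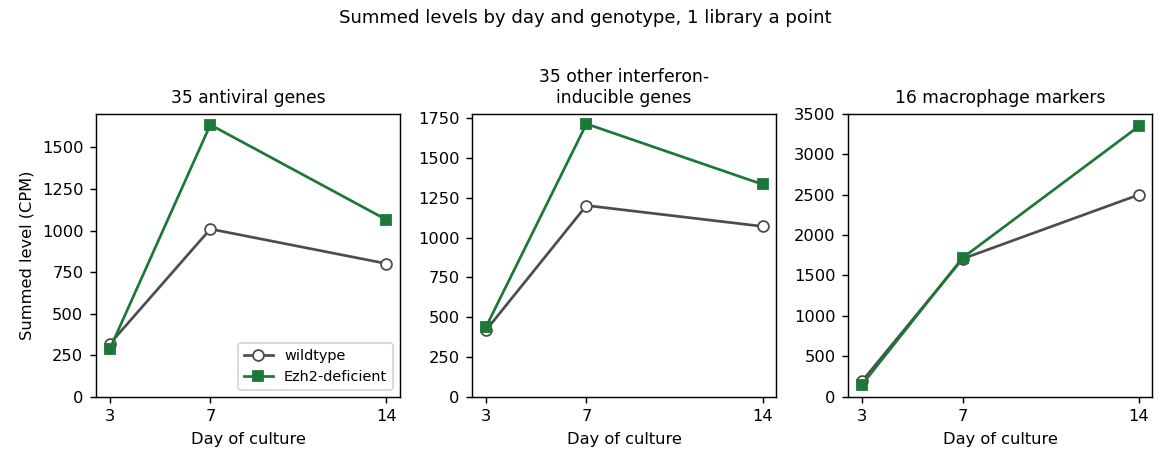
Summed CPM (vertical axes, from 0, each panel on its own scale) against day of culture for the 35 antiviral genes, 35 other interferon-inducible genes and 16 macrophage markers, with 1 library per point. Both interferon panels peak on day 7 in both genotypes, while the macrophage sum is highest on day 14.

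The second comparison asked whether the genes differed between Ezh2-deficient and wildtype cultures. Most were higher in the Ezh2-deficient libraries on day 7 and, by less, on day 14, and not on day 3. On day 7 all 35 were higher, by 1.12 times (Oas3) to 4.98 times (Mx1) with a median of 1.70. On day 14, 31 were higher, with a median of 1.36 and a highest ratio of 3.36 (Ifi44). On day 3, 17 were higher and 18 lower, with a median of 0.951. Of all genes tested, 50.1%, 49.4% and 49.9% were higher in the Ezh2-deficient library at days 3, 7 and 14.

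Each day had 1 library per genotype, so no test was possible within a day, and differences were counted by size. The rule asked for at least 2-fold, at least 1 CPM in the higher library and a 95% counting interval, exact, without 1 in it. On day 3 none of the 35 met it in the higher direction, against 1.46% of all genes tested. On day 7, 10 met it, against 2.08%, namely Ifit1, Ifit3, Isg15, Usp18, Oasl1, Mx1, Mx2, Zbp1, Rsad2 and Ifi44. On day 14, 6 met it, against 2.14%, namely Ifit1, Isg15, Oasl1, Mx1, Mx2 and Ifi44. No member met the rule in the lower direction on any day. The counting interval alone lay above 1 for 4 genes on day 3, 35 on day 7 and 27 on day 14, against 20.0%, 22.9% and 22.9% of all genes tested. For 8 genes the interval lay below 1 on day 3 and above 1 on day 7, against 3.66%. These intervals cover counting error only and say nothing of the spread between cultures.

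**Figure D3:**
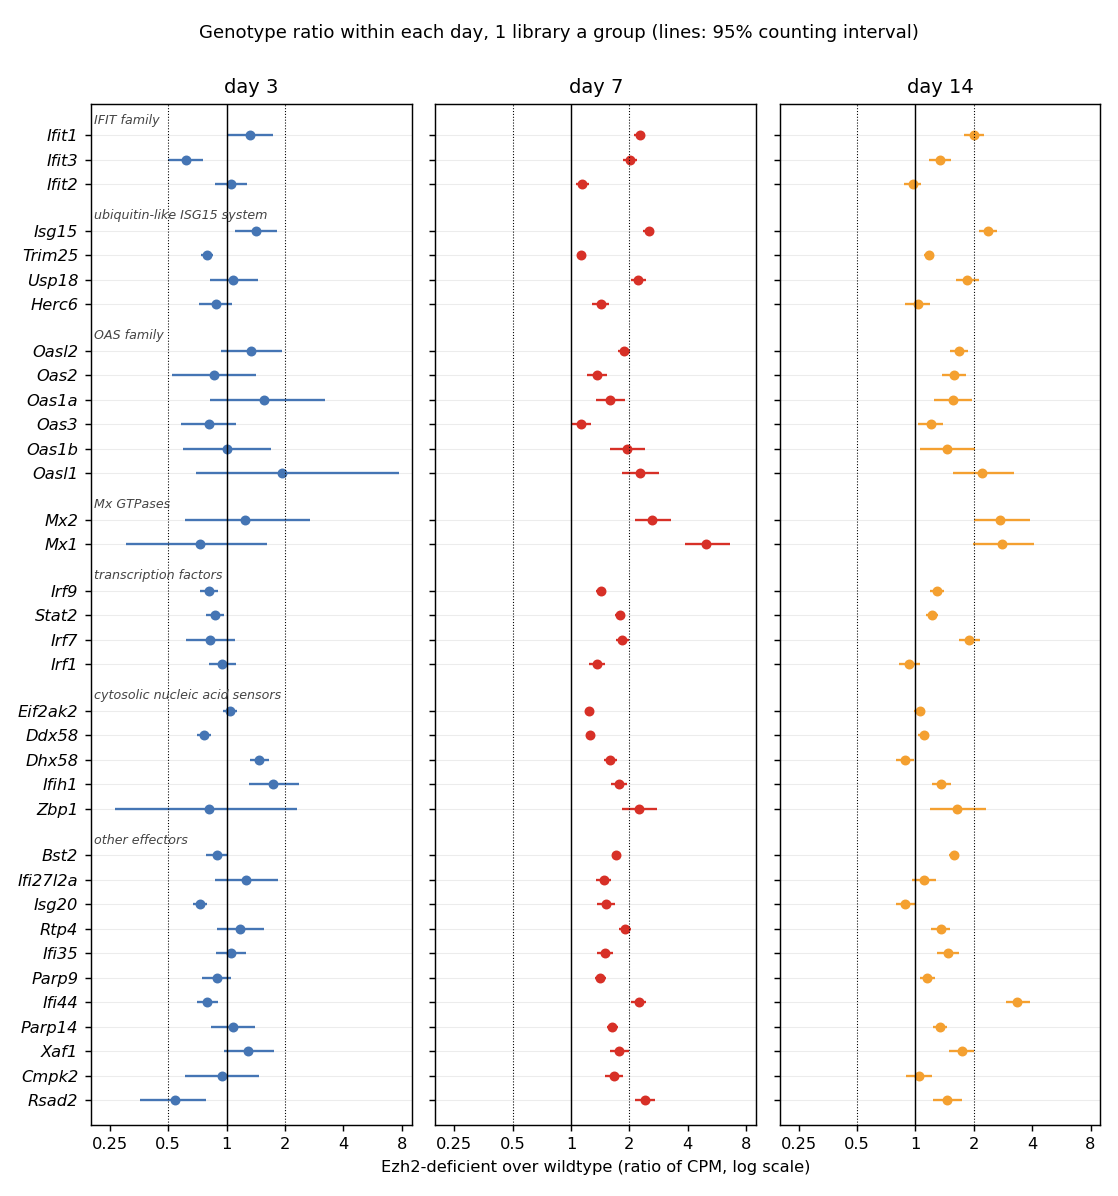
Ratio of Ezh2-deficient to wildtype CPM (log axis) for each of the 35 genes on days 3, 7 and 14, with 95% counting intervals as lines, a solid line at 1 and dotted lines at 0.5 and 2. All 35 points lie right of 1 on day 7, 31 do on day 14 and 17 do on day 3.

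Over the 3 days together, with day as a factor and the days standing in for replicates, the median difference of the 35 genes was 0.41 on the log2 scale, beside -0.0018 over all genes tested. The difference was above 0 for 34 of the 35 (49.7% of all genes tested), and Isg20 lay at -0.01, with the other sign under RLE factors and in DESeq2. None of the 35 passed the threshold with edgeR, where 0.0123% of all genes tested did so in either direction. At an unadjusted p under 0.05, 14 were higher, against 6.82% of all genes tested, and none lower. DESeq2 on the same design called 9 higher, against 2.34%, namely Ifit1, Isg15, Usp18, Oasl1, Oasl2, Oas1a, Mx2, Ifih1 and Xaf1, and limma-voom called 1, Isg15, against 0.190%. Without the day 3 libraries 16 passed with edgeR, against 2.42%, and the median was 0.64. Without the day 7 libraries none passed, 26 of the 35 were above 0 and the median was 0.28.

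**Figure D4:**
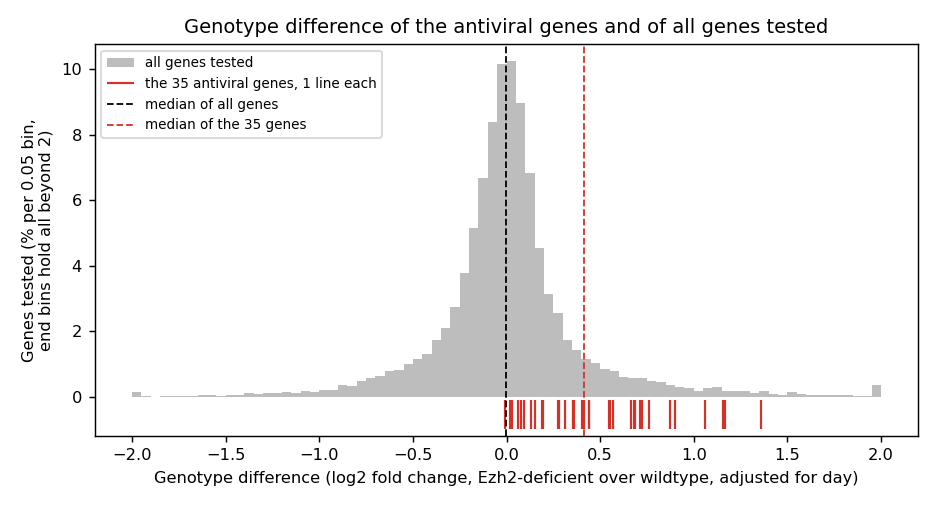
Distribution of the genotype difference (log2 fold change, horizontal axis) over all 16280 genes tested, as percent of genes per bin, with 1 red line below the axis for each of the 35 antiviral genes. The red dashed line, their median, stands at 0.41, to the right of the median of all genes.

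The macrophage markers did not follow the same order over the days between genotypes. Their summed level in Ezh2-deficient over wildtype libraries was 0.779, 1.01 and 1.34 at days 3, 7 and 14, where the sum of the 35 genes gave 0.903, 1.62 and 1.33. On day 7, 6 of 16 macrophage markers were higher in the Ezh2-deficient library (Lyz2, Cd14, Fcgr1, Cx3cr1, Cd163 and C1qa), and on day 14, 13 were. Over the 3 days the macrophage list had a median difference of -0.0031. Fibroblast markers had a median difference of 0.59 and chondrocyte markers of -0.51. The part of macrophages, fibroblasts or chondrocytes in the difference of the antiviral genes was not tested.

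The IFIT family comprises cytoplasmic proteins that bind viral RNA and block its translation, and its 3 genes lie next to each other on chromosome 19. Ifit1 stood at 2.91, 35.2 and 15.95 CPM in wildtype and at 3.87, 79.6 and 32.1 CPM in Ezh2-deficient libraries at days 3, 7 and 14. The Ezh2-deficient library was higher on each day, and both day 7 libraries lay above both day 14 libraries. The genotype difference was 0.90 ± 0.16 (SE, log2 scale, adjusted p = 0.127 with edgeR and 0.000186 with DESeq2). Ifit2 stood at 6.22, 32.0 and 27.5 CPM in wildtype and at 6.59, 36.7 and 26.7 CPM in Ezh2-deficient libraries. Its rise from day 3 to day 14 was 2.08 ± 0.12 (adjusted p = 0.000218), while the genotype difference was 0.08 ± 0.09 (adjusted p = 0.752). Ifit3 gave 6.89, 22.6 and 14.1 CPM in wildtype and 4.25, 45.4 and 18.8 CPM in Ezh2-deficient libraries, so that it was lower on day 3 and 2.01 times higher on day 7. Reads shared between Ifit3 and its near copy Ifit3b could have been split between them.

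The ISG15 system attaches and removes a small ubiquitin-like protein. Isg15, the protein tag itself, stood at 3.28, 36.3 and 19.6 CPM in wildtype and at 4.65, 91.4 and 46.5 CPM in Ezh2-deficient libraries. The Ezh2-deficient library was higher on all 3 days, by 1.42, 2.52 and 2.36 times. The genotype difference was 1.06 ± 0.17 (adjusted p = 0.114 with edgeR, 1.6e-05 with DESeq2 and 0.0466 with limma-voom), the one member that limma-voom called. Usp18, the protease that removes Isg15 and dampens interferon signalling, stood at 2.82, 19.2 and 12.8 CPM in wildtype and at 3.07, 42.6 and 23.8 CPM in Ezh2-deficient libraries (0.76 ± 0.20, adjusted p = 0.254 with edgeR and 0.0285 with DESeq2). Herc6, the mouse ligase for Isg15, and Trim25, a ubiquitin ligase that acts on the RNA sensor Ddx58, gave genotype differences of 0.13 ± 0.16 and 0.02 ± 0.12, and neither passed. Both rose from day 3 to day 7, by 1.74 ± 0.20 and 1.02 ± 0.15 (adjusted p = 0.00275 and 0.00647).

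The OAS family makes short oligoadenylates on sensing double-stranded RNA, which activate RNase L. All 6 genes lie on chromosome 5 in a pair of clusters. Oasl2 stood at 1.61, 32.8 and 22.6 CPM in wildtype and at 2.15, 61.8 and 37.9 CPM in Ezh2-deficient libraries. Its rise from day 3 to day 14 had the smallest p of the 35 genes (3.98 ± 0.16, adjusted p = 0.000153), and so had its genotype difference (0.73 ± 0.12, adjusted p = 0.114 with edgeR and 0.000283 with DESeq2). Oasl1, which restrains translation of Irf7, was barely detected on day 3, at 0.152 and 0.323 CPM, and stood at 3.29 and 1.79 CPM in wildtype and at 7.52 and 3.98 CPM in Ezh2-deficient libraries at days 7 and 14. Its genotype difference was 1.16 ± 0.19 (adjusted p = 0.115 with edgeR and 0.00133 with DESeq2). Oas1a stood at 0.455, 5.87 and 4.82 CPM in wildtype and at 0.726, 9.404 and 7.52 CPM in Ezh2-deficient libraries. The ratio between genotypes was 1.56, 1.60 and 1.56 at days 3, 7 and 14 (0.66 ± 0.15, adjusted p = 0.196 with edgeR and 0.035 with DESeq2), and its rise from day 3 to day 14 was 3.38 ± 0.20 (adjusted p = 0.000258). Oas1b, known to be truncated in common laboratory strains, Oas2 and Oas3 were also higher in the Ezh2-deficient libraries on days 7 and 14. Their differences over the 3 days were 0.55 ± 0.24, 0.36 ± 0.18 and 0.06 ± 0.15, and none passed. Reads of Oas1a, Oas1b and their near copies could have been split between genes.

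The Mx genes encode dynamin-like GTPases that trap viral particles, and common laboratory mouse strains are known to carry defective forms. They were the least abundant of the 35 genes on day 7 by RPKM in wildtype, at 0.557 for Mx1 and 1.18 for Mx2. Mx1 stood at 0.455, 1.901 and 1.63 CPM in wildtype and at 0.323, 9.58 and 4.64 CPM in Ezh2-deficient libraries. Its day 7 ratio of 4.98 (95% counting interval 3.88 to 6.64) was the highest of the 35, and its difference over the days was 1.36 ± 0.52 (adjusted p = 0.362 with edgeR). Mx2 stood at 0.425, 3.29 and 1.98 CPM in wildtype and at 0.538, 8.69 and 5.47 CPM in Ezh2-deficient libraries. On all 3 days the Ezh2-deficient library was higher (1.17 ± 0.27, adjusted p = 0.199 with edgeR and 0.00904 with DESeq2). Both genes rose from day 3 to day 7, by 3.49 ± 0.68 and 3.51 ± 0.35 (adjusted p = 0.0139 and 0.00187), and reads shared between them could have been split.

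The 4 transcription factors of the pathway had a median genotype difference of 0.25 on the log2 scale. Irf7, the factor that amplifies interferon-α production, stood at 3.03, 30.4 and 14.6 CPM in wildtype and at 2.50, 55.9 and 27.7 CPM in Ezh2-deficient libraries. Its Ezh2-deficient level was the higher on days 7 and 14, by 1.84 and 1.89 times (0.57 ± 0.24 over the days, adjusted p = 0.406 with edgeR). On day 3 it was the lower, at 0.83 times, with a counting interval that included 1. Stat2 stood at 20.9, 62.9 and 54.4 CPM in wildtype and at 18.2, 112 and 66.1 CPM in Ezh2-deficient libraries. Irf9, the DNA-binding partner of Stat2, stood at 22.2, 46.9 and 39.5 CPM in wildtype and at 18.0, 66.9 and 50.9 CPM in Ezh2-deficient libraries. Irf1, a factor of both interferon types, lay between 8.85 and 29.7 CPM, with its highest value in the Ezh2-deficient day 7 library. All 4 rose from day 3 to day 7, by 1.47 (Irf9) to 3.88 (Irf7) on the log2 scale, and none passed for genotype with edgeR, DESeq2 or limma-voom.

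Cytosolic sensors detect viral nucleic acid and are themselves induced by interferon. Ifih1, which senses long double-stranded RNA, stood at 2.18, 20.0 and 19.0 CPM in wildtype and at 3.82, 35.3 and 25.8 CPM in Ezh2-deficient libraries. Ezh2-deficient libraries held more of it on all 3 days, by 1.74, 1.77 and 1.36 times (0.69 ± 0.12, adjusted p = 0.123 with edgeR and 0.000925 with DESeq2). In the fit over both genotypes Ifih1 rose by 2.94 ± 0.15 from day 3 to day 14 (edgeR, adjusted p = 0.000194). Ddx58, the sensor RIG-I, started high, at 37.1, 87.2 and 63.3 CPM in wildtype and at 28.5, 109 and 69.9 CPM in Ezh2-deficient libraries, with a genotype difference of 0.03 ± 0.14. Dhx58, which modulates those sensors, stood at 14.6, 27.4 and 27.4 CPM in wildtype and at 21.6, 43.9 and 24.2 CPM in Ezh2-deficient libraries, and was the one sensor that did not pass between day 14 and day 3. Zbp1, a sensor of Z-form nucleic acid that triggers cell death, went from 0.273 to 3.77 CPM in wildtype and from 0.215 to 8.52 CPM in Ezh2-deficient libraries between day 3 and day 7. The kinase Eif2ak2, which halts translation, lay between 29.3 and 84.8 CPM, with a genotype difference of 0.15 ± 0.08 (adjusted p = 0.476).

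Among the other effectors, Bst2, the tether that holds budding virus at the cell surface, had the highest mean RPKM of the 35 genes. It stood at 14.4, 108 and 71.4 RPKM in wildtype and at 12.6, 185.7 and 106 RPKM in Ezh2-deficient libraries. Its genotype difference was 0.44 ± 0.19 (adjusted p = 0.404), with a ratio of 0.893 on day 3 and of 1.70 and 1.59 on days 7 and 14. Xaf1, a pro-apoptotic protein, stood at 2.34, 13.8 and 10.4 CPM in wildtype and at 3.04, 24.5 and 18.0 CPM in Ezh2-deficient libraries. On each day it was higher in the Ezh2-deficient library (0.68 ± 0.13, adjusted p = 0.160 with edgeR and 0.00333 with DESeq2). Parp14, an ADP-ribosyltransferase, stood at 3.31, 38.9 and 39.7 CPM in wildtype and at 3.58, 63.6 and 53.1 CPM in Ezh2-deficient libraries, and rose by 3.74 ± 0.17 from day 3 to day 14 (adjusted p = 0.000163). Its neighbour on chromosome 16, Parp9, rose by 2.23 ± 0.18.

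Ifi27l2a, a small membrane protein, stood at 1.55, 24.5 and 13.8 CPM in wildtype and at 1.96, 36.1 and 15.3 CPM in Ezh2-deficient libraries. It rose by 3.06 ± 0.16 from day 3 to day 14 (adjusted p = 0.000194) and was lower on day 14 than on day 7 in both genotypes. Rsad2, the enzyme viperin that makes a chain-terminating nucleotide, stood at 2.21, 10.3 and 8.78 CPM in wildtype and at 1.18, 24.8 and 12.8 CPM in Ezh2-deficient libraries. Its neighbour on chromosome 12, the nucleotide kinase Cmpk2, stood at 1.34, 15.7 and 12.5 CPM in wildtype and at 1.26, 26.2 and 13.0 CPM in Ezh2-deficient libraries. Both were higher in the Ezh2-deficient library on day 7, by 2.41 and 1.67 times. On day 3 Rsad2 was lower there, at 0.541 times. For Cmpk2 the day 3 ratio was 0.95, with a counting interval that included 1 (0.61 to 1.46). Rtp4, a receptor-transporting protein, and Ifi35 were higher on day 7 by 1.896 and 1.5 times, with differences over the days of 0.55 ± 0.15 and 0.41 ± 0.13 (adjusted p = 0.256 and 0.307).

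Isg20 departed from the shared time course in both genotypes, and Ifi44 did so in wildtype. Ifi44 stood at 15.8, 18.7 and 9.69 CPM in wildtype and at 12.6, 41.8 and 32.6 CPM in Ezh2-deficient libraries. In wildtype it was lower on day 14 than on day 3, at 0.613 times, while in Ezh2-deficient libraries it was 2.58 times higher. The change of its genotype difference per doubling of day was 0.95 ± 0.12 on the log2 scale (adjusted p = 0.0460 with edgeR, 3.1e-05 with DESeq2 and 0.0485 with limma-voom). It was the 1 member that passed this test, against 0.614% of all genes tested in either direction, and 7 members had an unadjusted p under 0.05, against 13.3%. Isg20, an exonuclease that degrades viral RNA, stood at 37.2, 15.5 and 22.8 CPM in wildtype and at 27.2, 23.5 and 20.2 CPM in Ezh2-deficient libraries. It was the 1 member whose day 3 libraries were the highest of each genotype.

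The genotype ratios of days 7 and 14, which rest on different libraries, were set side by side. Across the 35 genes the log2 ratio of Ezh2-deficient to wildtype on day 7 and on day 14 had Spearman's rho of 0.754 and Pearson's r of 0.762. Over all genes tested these were 0.403 and 0.418. These values run across genes, which are not independent replicates, and near copies among them can share reads. The ratio was smaller on day 14 than on day 7 for 29 genes and larger for 6, namely Oas2, Oas3, Mx2, Irf7, Ifi44 and Trim25. The median log2 ratio of the 35 was 0.77 on day 7 and 0.45 on day 14, beside -0.0046 and 0 over all genes tested. In all, 15 genes were higher in the Ezh2-deficient library on every day. Of these only Ifit1, Isg15 and Ifih1 had a day 3 counting interval above 1. The share of all genes tested that were higher on every day was not counted. Shares on single days were 50.1%, 49.4% and 49.9%, which do not give the share for all 3 days at once.

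**Figure D5:**
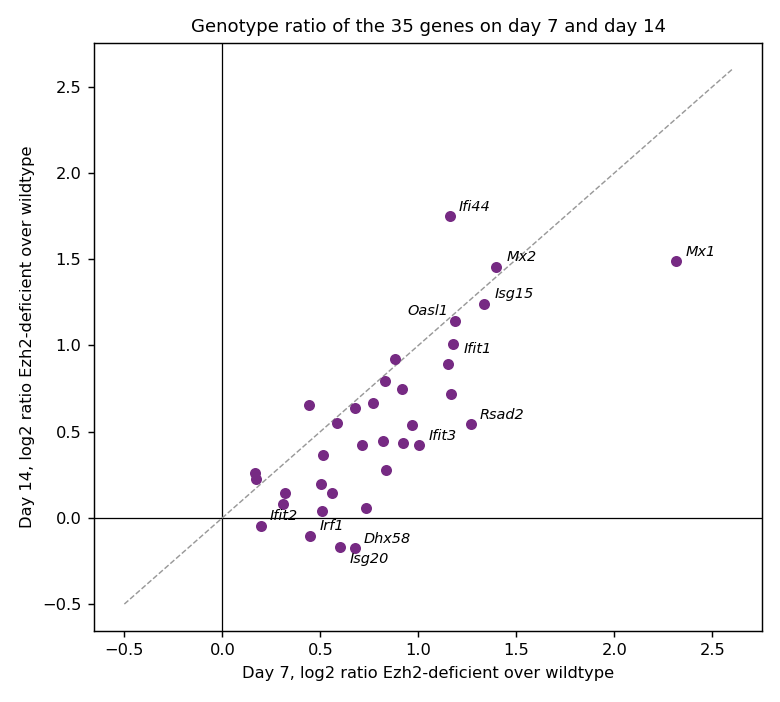
Log2 ratio of Ezh2-deficient to wildtype on day 7 (horizontal axis) and on day 14 (vertical axis) for the 35 genes, 1 point each, with equal ratios on the dashed line. Most points lie below the dashed line and to the right of 0, Ifi44 lies above it, and Mx1 lies farthest to the right.

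The rest of the pathway was read from lists of named genes. Interferon genes themselves were at or near the floor. Of 23 listed ligand genes, 19 were in the table, none had enough counts to be tested, and 11 were at 0 in all libraries. Ifnb1, the interferon-β gene, had 0, 2 and 0 fragments in wildtype and 1, 3 and 1 in Ezh2-deficient libraries at days 3, 7 and 14, so a difference was not detectable at this depth. The highest ligand value was 0.146 CPM, for Ifnk. The receptor genes were expressed throughout. Of 7 listed, 6 were in the table and tested, and they ranged from 0.340 CPM (Il28ra) to 89.2 CPM (Ifnar1). None passed for genotype, and the 3 with the smallest p differed by -0.26 ± 0.08 (Il10rb), 0.22 ± 0.09 (Ifngr1) and -0.16 ± 0.07 (Ifngr2). From day 3 to day 14, 5 of the 6 passed as higher on day 14, against 23.2% of all genes tested, and all 6 had a difference above 0.

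Of the receptor-bound kinases Jak1, Jak2 and Tyk2, none passed for genotype. Jak1 and Jak2 differed by 0.17 ± 0.08 and 0.12 ± 0.15. Of 5 negative regulators none passed for genotype, and their median difference was 0.06, with Socs3 at 0.44 ± 0.15 (adjusted p = 0.314), Socs1 at 0.16 ± 0.14 and Ptpn2 at 0.06 ± 0.08. The genes listed for nucleic acid sensing upstream of interferon include adaptors, kinases, transcription factors and enzymes besides sensors. Of 19 tested, none passed with edgeR, and the median difference was 0.08. With DESeq2 1 was called higher, against 2.34% of all genes tested. This was Samhd1, the nucleotide hydrolase (0.35 ± 0.06, adjusted p = 0.145 with edgeR and 0.0116 with DESeq2), and next by p came Adar at 0.26 ± 0.10 and Traf3 at -0.16 ± 0.07.

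Other interferon-inducible genes also had their largest median ratio on day 7. Of 41 listed, 35 were tested, and all 35 had a difference above 0, against 49.7% of all genes tested, with a median of 0.32. None passed with edgeR, and 6 were called higher with DESeq2, against 2.34% of all genes tested. Parp12, an ADP-ribosyltransferase, gave 0.58 ± 0.08 (adjusted p = 0.101 with edgeR), Slfn8 0.82 ± 0.13 (0.111) and Slfn5 0.53 ± 0.09 (0.121). Their median log2 ratio was 0.11, 0.51 and 0.40 at days 3, 7 and 14, where the 35 antiviral genes gave -0.07, 0.77 and 0.45. Of 17 interferon-inducible GTPases, which act on vacuoles that hold pathogens and answer mostly to interferon-γ, 14 were tested and 13 had a difference above 0, with a median of 0.53. Iigp1 stood at 0.516, 16.3 and 6.95 CPM in wildtype and at 0.995, 44.7 and 15.7 CPM in Ezh2-deficient libraries (1.24 ± 0.13, adjusted p = 0.0727 with edgeR and 4.9e-09 with DESeq2). Gbp3 and Ifi47 gave 0.83 ± 0.14 and 0.90 ± 0.19. Between day 3 and day 7, 32 of the 35 other inducible genes (33 of which had a difference above 0) and all 14 tested GTPases passed as higher on day 7, against 19.5% of all genes tested.

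The promoter match was set against the values last. The 11 members that held GAAANNGAAA, of which Isg15, Ifit1, Ifit3, Oas1a and Bst2 are printed above, had a median day 7 log2 ratio of 0.82. The 13 members with a RefSeq promoter and no match, Ifit2 among them, had a median of 0.60. All 13 were also higher on day 7 in the Ezh2-deficient library. Outside the members, 401 tested genes held the match, and their median day 7 log2 ratio was 0.01, with 52.4% above 0, beside -0.01 and 49.0% for all 11278 tested genes with a promoter. Their median difference between day 7 and day 3 was 0.16, where the 11 members that held it gave 3.19.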

How the data were processed

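RNA was measured by sequencing in 6 libraries, 1 for each genotype and day. The deposited table gives read counts per gene, not normalized, and RPKM values that the authors scaled by a coding length and a total per library, per the file headers. The submitters' processing notes name CASAVA 1.9, TopHat 12.0.6, HTSeq and the build mm10, with no role or order. For strandedness and annotation the sources used here give nothing, so overlapping or antisense genes could not be told apart. Columns without a sample numbered 0.

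Counts were tested in R 4.3.3 with edgeR 4.0.16 (quasi-likelihood F test, TMM factors, filterByExpr with a minimum count of 10, Benjamini-Hochberg adjustment over all 16280 genes kept, two-sided, threshold 0.05), with DESeq2 1.42.0 and limma 3.58.1 (voom) as alternatives. The model held genotype and day and left 2 residual degrees of freedom, and fewer where the libraries of a day were left out. A term for genotype times log2 day, centred, was fitted apart, with 1 residual degree of freedom. Days stand in for replicates of a genotype, and genotypes for replicates of a day, so p-values measure only the spread between these libraries. Standard errors follow from F as the fold change (log2) over its square root. Counting intervals are exact at 95% and, like the floor of 3 fragments, cover counting error only. The fit was tested on simulated data. Promoters came from RefSeq (GRCm38.p6) by symbol.

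The members and lists were chosen with earlier results of these data known. Every member is described by role. Full values are given for the 8 members with the smallest unadjusted p for genotype, for the 6 with the smallest p between day 14 and day 3, and for up to 3 genes of each pathway list by the smallest p for genotype; some listed genes are not reported here. Other members given in full, day 14 against day 7 and the counts of intervals above 1 were chosen after the values were seen. Alternatives covered other scaling factors, count filters, dispersion, tools, halved counts and leaving out the libraries of each day.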

Additional observations from a re-analysis of the deposited data

Results flagged for a closer look

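Ifi44 was the 1 gene of the 35 that passed in edgeR for a change of the genotype difference per doubling of day. The change was 0.9475 on the log2 scale (adjusted p = 0.0460 with edgeR). Its Ezh2-deficient level was 0.797 times the wildtype level on day 3, and 2.23 and 3.36 times on days 7 and 14. The test fits a straight line over log2 day with 1 residual degree of freedom. A difference that peaks on day 7 can therefore be missed, and not passing does not show that a gene stayed unchanged.

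For 8 genes the Ezh2-deficient library was lower on day 3 and higher on day 7, with both counting intervals excluding 1, as was so for 3.66% of all genes tested. The difference between the days was not tested for them by itself, and the trend over days did not pass for any of them but Ifi44. The log2 ratio on day 7 was 1.00 for Ifit3, 0.60 for Isg20, 0.51 for Irf9, 0.84 for Stat2, 0.32 for Ddx58, 1.27 for Rsad2, 1.16 for Ifi44 and 0.17 for Trim25. On day 3 the ratios of Ezh2-deficient to wildtype ran from 0.541 (Rsad2) to 0.872 (Stat2). Each of these ratios rests on 1 library per genotype.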

How the results depend on the processing

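Calls between genotypes depended on the tool and on the day 3 libraries. Of the 35 genes none passed in edgeR under other factors, filters, robust dispersion or halved counts, nor without the day 7 or the day 14 libraries, while 9 passed in DESeq2, 1 in limma-voom and 16 in edgeR without the day 3 libraries. Their median genotype difference ran from 0.28 to 0.64 over the alternatives. Day 14 against day 7, a comparison chosen after seeing the data, called 2 genes (against 5.66% of all genes tested), and 4 with total counts only (5.31%), 7 in DESeq2 (1960 of the 16280 tested), 1 in limma-voom (5.78%) and 16 without the day 3 libraries (14.4%). At 1.5-fold instead of 2-fold, 3, 24 and 14 genes were called in either direction on days 3, 7 and 14. Of all genes tested, 6.52%, 10.0% and 11.8% were called. The members called on day 7 and day 14 were higher in the Ezh2-deficient library, and on day 3 Ifit3 and Rsad2 were lower and 1 gene higher. The 2-fold shares given earlier held the higher direction only, so the shares of the 2 rules are not alike. Counts for day 7 or 14 against day 3 and for the change of the genotype difference with day stayed within 1.5 times. Of 480 values of single genes under an alternative, 26 newly passed and 15 changed sign, none of which passed. Without the day 7 libraries the genotype difference changed sign for Ifit3 (-0.13), Oas3 (-0.0077), Irf1 (-0.0929), Ddx58 (-0.12), Rsad2 (-0.13), Cmpk2 (-0.0081), Trim25 (-0.0588) and Herc6 (-0.0756). Without the day 14 libraries it did so for Oas3 (-0.0364), Ddx58 (-0.0196), Trim25 (-0.0755) and Isg20 (0.0765). Isg20 also changed sign with RLE factors (0.0038), in DESeq2 (0.0048) and without the day 3 libraries (0.22). The cause was not tested. With a further C after the motif, 37.5% of the members with a promoter held it, against 0.942% of table genes. Of the other interferon-inducible genes with a promoter, 32.4% held it. With 1 library a group, depth bounds counting error but not the spread between cultures, and the interferon genes lie at the floor.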
